A study of Mus musculus with 28 samples.

Results

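The genes of the microRNA miR-124 were followed by 5 entries of the deposited gene table, chosen by name from 41549 genes: the hairpin genes Mir124a-1, Mir124a-2 and Mir124a-3, and the long noncoding transcripts Mir124a-1hg and Mir124-2hg that host the first and the second hairpin. MiR-124 is an abundant microRNA of the brain and is made in neurons. Its primary transcripts are long nuclear RNAs, from which the nuclease Drosha, with Dgcr8, cuts a hairpin that Dicer later trims to the mature microRNA. The hairpin genes lie on different chromosomes and their mature products are the same microRNA, so that a host transcript reports on 1 locus only and the mature product does not.

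The libraries came from motor cortex nuclei of 7 mice, numbered 17 to 23. Each mouse had received the vector AAV-Cas9-miR-124-empty in the left hemisphere and AAV-Cas9-miR-124-g4 in the right, so vector and side cannot be told apart. Both adeno-associated virus vectors are labelled with the nuclease Cas9, while the meaning of g4 and the miR-124 locus it was meant to reach are not explained in the labels. Nuclei from fixed tissue were stained for the HA tag and sorted, and each hemisphere gave an HA-positive library (labelled positive for Cas9) and an HA-negative library. This made 4 groups of 7 libraries, 28 in all, named below by vector (empty or g4) and stain (HA-positive or HA-negative). The HA-negative nuclei came from injected tissue too, and no uninjected tissue was analysed here. The labels state neither strain, sex and age of the animals nor the promoter that drives Cas9.

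Each library held 248612 to 902944 counts, and 8687 to 13668 genes were detected. Fewer than 10000 genes were detected in the empty HA-positive libraries of mice 17, 21 and 22 and in the g4 HA-positive library of mouse 18. The g4 HA-positive library of mouse 19 held both Xist, at 655 CPM (counts per library scaled to the same total), and Y-linked transcripts, at 48.7 CPM, unlike the other libraries of that mouse. It also had the highest sums of oligodendrocyte and microglia markers of its group, and values without it are given beside the main results for g4 HA-positive nuclei. The summed level of 16 pan-neuronal markers was 6504 to 8670 CPM over the g4 libraries and 6739 to 8685 CPM over the empty ones, and none of the 16 excitatory neuron markers was at 0 throughout a group.

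In the annotation of the mouse genome build GRCm38, all 5 genes lie on the plus strand. Mir124a-1 (ENSMUSG00000065597, chromosome 14, 64590657 to 64590741) is 85 bases long and lies wholly inside the last exon block of Mir124a-1hg (ENSMUSG00000097545, chromosome 14, 64587331 to 64593961). Mir124a-2 (ENSMUSG00000093073, chromosome 3, 17795662 to 17795770) is 109 bases long and lies within the span of Mir124-2hg (ENSMUSG00000100252, chromosome 3, 17789921 to 17808970). There, 82 of its bases are outside every exon of the host and 27 overlap the start of an exon block. Of 7 annotated transcripts of Mir124-2hg, 6 run across the hairpin and 1 has an exon that reaches into it. Mir124a-3 (ENSMUSG00000065454, chromosome 2, 180894040 to 180894107) is 68 bases long, and only its last 3 bases touch another transcript, the lincRNA Gm27032.

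**Figure D1:**
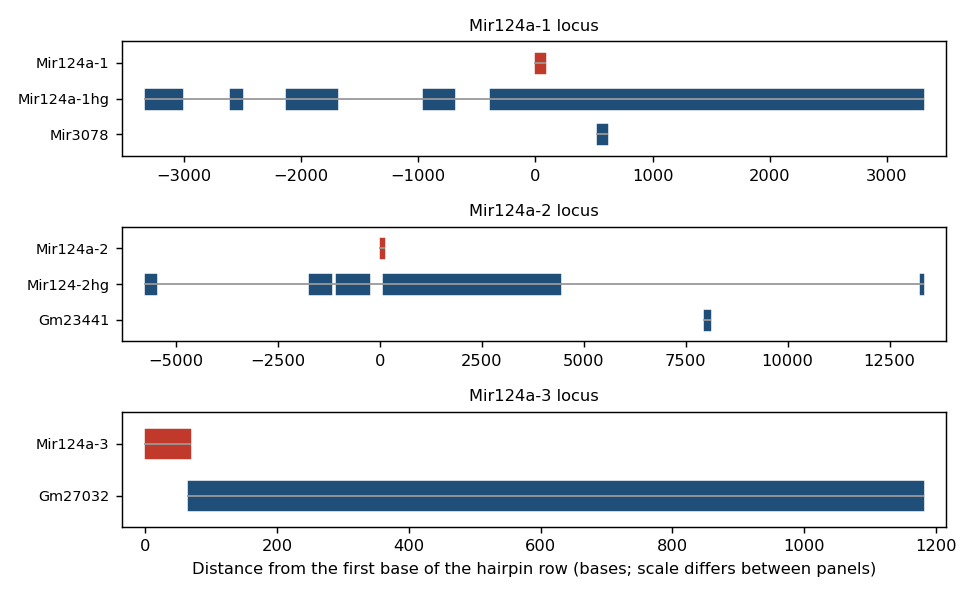
Map of the 3 miR-124 loci in the GRCm38 annotation, with the distance in bases from the first base of each hairpin gene on the horizontal axis; red boxes are the hairpin genes, blue boxes the merged exons of the other transcripts and grey lines their spans. Mir124a-1 lies inside an exon of its host, whereas 82 of the 109 bases of Mir124a-2 lie between exons.

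Reads over the Mir124a-2 hairpin were counted in only 1 of the 4 groups. In g4 HA-positive nuclei the counts were 0, 1, 4, 30, 17, 2 and 3 in mice 17 to 23, a sum of 57 and a level of 13.8 ± 18.7 CPM (SD, n = 7). All other 21 libraries had 0 counts, which allows up to 1.01 CPM in the empty HA-positive group, 0.749 in the empty HA-negative and 0.743 in the g4 HA-negative group, taking 3 counts over a group as the limit. These limits cover counting error only, and they use pooled total counts without the normalisation factors that enter the CPM levels. The hairpin was thus counted in the g4 HA-positive library of 6 of 7 mice, and not in that of mouse 17.

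The level was very uneven. Mice 20 and 21 held 52.6% and 29.8% of the 57 counts, at 52.3 and 24.3 CPM, and the other mice with counts had 2.87 to 7.72 CPM. Against an empty HA-positive group at 0 in all 7 libraries, an exact two-sided permutation test gave p = 0.00466 (3432 splits). With a group wholly at 0 this p is set by the number of libraries with any count, here 6 of 7, and says nothing about the size of the difference; the test against g4 HA-negative nuclei has the same value for this reason. With the counts of a group pooled and divided by its total counts, 57 counts were set against a limit of 3. The ratio was 14.1 against the empty vector in the same fraction, and 19.2 against HA-negative nuclei with g4. These ratios are not lower bounds, since the limit of 3 treats reads as independent and the spread between mice does not enter. Without mouse 20, the mean level was 7.41 CPM and the bounds from pooled counts fell to 6.33-fold and 9.47-fold. Without the g4 HA-positive library of mouse 19 the mean was 15.4 CPM. These libraries come from the same mice, and the side of the brain moves with the vector.

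**Figure D2:**
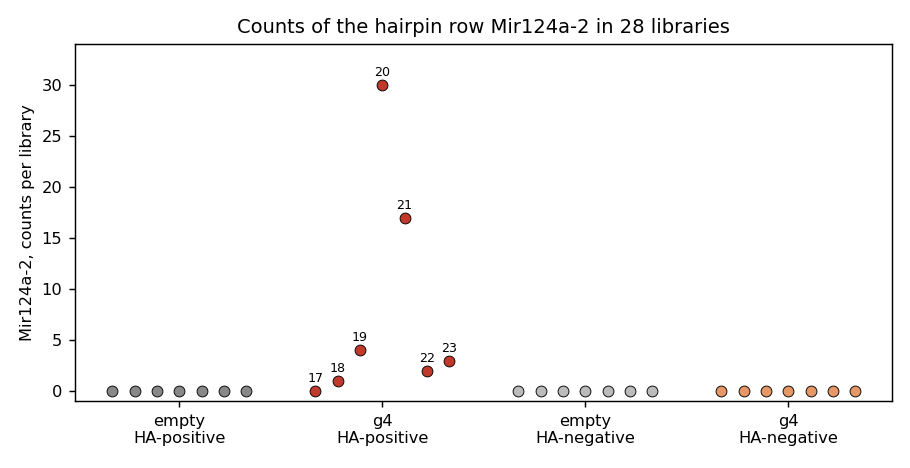
Raw counts of the hairpin gene Mir124a-2 (vertical axis, counts per library) in each of the 28 libraries, 7 per group, with the mouse number above the g4 HA-positive points. Counts above 0 occur in 6 of 7 g4 HA-positive libraries, up to 30 in mouse 20, and in 0 of the other 21 libraries.

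To see how common such a pattern is in these tables, all 41549 genes were sorted by the groups in which they had any count. In g4 HA-positive nuclei alone, 705 genes had counts, against 457 in HA-positive nuclei with the empty vector, 760 in empty HA-negative and 798 in g4 HA-negative nuclei. Of these, 11, 8, 5 and 16 reached 10 counts, in the same order. Counts in at least 4 libraries of 1 group and 0 in all others were found for 3, 1, 3 and 9 genes, in that order again, so that g4 HA-negative nuclei had the most. At 6 libraries, the number in which Mir124a-2 itself was counted and thus a threshold taken from it, Mir124a-2 was the 1 gene left in g4 HA-positive nuclei and 0 were left in the other groups. After Mir124a-2, the genes with the most counts among those detected in g4 HA-positive nuclei alone were Tcf23 with 47, Gm23766 with 20, Gm10814 with 19, and Ckmt2 and Esm1 with 16 each. Each of these had its counts in 1 library, except Esm1 in 2.

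Hairpin genes were seldom counted at all in these libraries. Of 2202 genes annotated as microRNA, 75 had at least 1 count and 19 had 10 or more. Mir124a-2 had place 10 among them by total count. The 5 with the most counts were Mir6236 (3148), Gm27509 (382), Mir181b-1 (353), Gm24270 (295) and Gm24245 (280). All but Mir181b-1 were spread over 26 to 28 libraries and all 4 groups. Mir181b-1 had 327 of its 353 counts in a single library, of empty HA-positive nuclei of mouse 22. Besides Mir124a-2, 1 microRNA gene, Gm47277, had counts in at least 3 g4 HA-positive libraries and in no other group, with 3, 1 and 1 counts in mice 18, 20 and 23.

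The counts over the hairpin were also set against the density of reads along its host. Mir124-2hg had 491 counts over 6.013 kb of exon in g4 HA-positive nuclei. At that density a stretch as long as the Mir124a-2 hairpin would hold 8.9 counts in this group, and it held 57, a ratio of 6.4. In the 3 groups where the hairpin had 0 counts, the same density gives 3.68 counts for empty HA-positive, 2.79 for empty HA-negative and 3.05 for g4 HA-negative nuclei. The ratio ran from 0 in mouse 17 and 1.17 in mouse 18 through 1.78, 2.6 and 5.17 in mice 22, 19 and 23 to 8.85 in mouse 21 and 19.7 in mouse 20. The excess over the host's density thus rested on mice 20 and 21 for the most part. These expected counts scale by gene length alone, and read length does not enter. Where reads are counted by overlap, their length adds relatively more to a short gene. The ratios may therefore be too high, and by how much was not tested. Most of the hairpin lies outside the host's exons, in a stretch that in most annotated transcripts is intron. Only counts per gene were available, so where within the hairpin its reads lie was not seen. How a read shared by hairpin and host was assigned is unknown, since no source used here describes the counting.

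Mir124a-1 and Mir124a-3 had 0 counts in all 28 libraries, which allows up to 1.01 CPM per group at 3 counts. For Mir124a-1 the density of its host corresponds to 23.5 counts over all libraries (4.35 and 7.08 with the empty and the g4 vector in HA-positive nuclei, 5.7 and 6.37 in HA-negative nuclei). This hairpin lies wholly inside an exon of Mir124a-1hg, so a read over it also overlaps the host, and a count of 0 for the hairpin does not show that the stretch had no reads. For Mir124a-3 the only overlapping transcript, Gm27032, had 3, 7, 9 and 7 counts in the same order of groups.

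The 2 host transcripts were detected in nearly every library, and they are the primary transcripts whose level can be compared across groups. Mir124-2hg had 1016 counts in 27 of 28 libraries, and Mir124a-1hg, known in the retina as Rncr3, had 1328 counts in all 28. Both passed the filter on low counts in each of the 5 comparisons, and none of the 3 hairpin genes did.

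Mir124-2hg was most abundant in g4 HA-positive nuclei. Its counts in mice 17 to 23 were 75, 47, 85, 84, 106, 62 and 32 in g4 HA-positive libraries, or 82.4 to 162 CPM with a median of 146. In g4 HA-negative libraries of the same mice they were 22, 8, 20, 26, 27, 34 and 31, or 27.1 to 51.4 CPM with a median of 42.6. Every g4 HA-positive library lay above every g4 HA-negative library. The share of all tested genes that separate in this way was not computed, so the separation is given as a description. In empty HA-positive libraries the counts were 28, 30, 20, 34, 51, 0 and 40, or 0 to 154 CPM with a median of 63.2, and in empty HA-negative libraries 21, 6, 9, 11, 23, 27 and 57, or 11.8 to 74.8 CPM with a median of 30. These groups overlapped with each other, and the empty HA-positive library of mouse 22 stood apart with a count of 0 (up to 6.17 CPM allowed by 3 counts).

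Mir124a-1hg also had its highest median in g4 HA-positive nuclei, but its libraries of the g4 fractions overlapped. In mice 17 to 23 its counts were 48, 47, 143, 34, 71, 22 and 35 in g4 HA-positive libraries (57.5 to 156 CPM, median 96.8) and 49, 28, 57, 41, 85, 50 and 50 in g4 HA-negative libraries (74.1 to 120 CPM, median 94.8). In empty HA-positive libraries they were 14, 33, 17, 68, 40, 71 and 3 (11.5 to 146 CPM, median 69.5), and in empty HA-negative libraries 29, 40, 44, 49, 77, 29 and 54 (55.6 to 134 CPM, median 78.7). All 4 groups overlapped. The lowest value was that of mouse 23 in empty HA-positive nuclei, where Mir124-2hg had its highest level of that group. In the library of mouse 22, where Mir124-2hg had 0 counts, Mir124a-1hg had its highest level of that group.

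**Figure D3:**
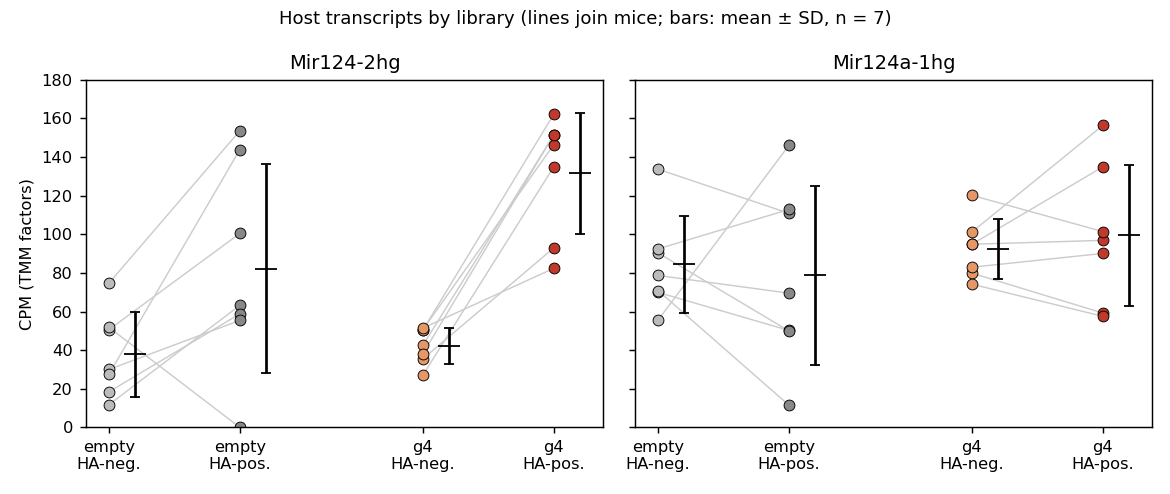
Level of Mir124-2hg (left) and Mir124a-1hg (right) in CPM with normalisation factors, by group; points are the 7 libraries of a group, grey lines join libraries of the same mouse and vector, and the bars beside the points are the mean ± SD. Mir124-2hg rises from HA-negative to HA-positive in 7 of 7 mice with g4, from 42.3 to 132 CPM on average, and Mir124a-1hg stays between 78.7 and 99.5 CPM on average in the 4 groups.

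Between HA-positive and HA-negative nuclei of the g4 hemisphere, Mir124-2hg rose from 42.3 ± 9.25 to 132 ± 31.3 CPM (SD, n = 7 each). The log2 fold change was 1.61 ± 0.21 (SE), or 3.06-fold, higher in 7 of 7 mice, with an adjusted p of 3.11e-06 in edgeR's quasi-likelihood test over 6264 genes. Here 1 of 2 host transcripts was called, against 6.4% of all tested genes, and Mir124-2hg stood at place 12 of the tested genes by p and at place 32 by size of rise. The adjusted p was at most 0.000101 over 17 alternatives, with log2 fold changes of 1.54 to 1.76. Without the library of mouse 19 the value was 1.69 (adjusted p = 3.71e-07), and with the hairpin's counts added to the host it was 1.76. Mir124a-1hg had 92.6 ± 15.5 CPM in HA-negative and 99.5 ± 36.4 in HA-positive nuclei, a log2 fold change of 0.11 ± 0.21 (adjusted p = 0.857, 95% interval from -0.30 to 0.52). Without the g4 HA-positive library of mouse 19 it was -0.050, so its direction is not settled.

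In the hemisphere with the empty vector, Mir124-2hg had 82.2 ± 54.2 CPM in HA-positive and 37.9 ± 22.1 CPM in HA-negative nuclei. The log2 fold change of 1.08 ± 0.56 did not pass the test (adjusted p = 0.314), and 6 of 7 mice had the higher level in HA-positive nuclei. Mouse 22 was the exception with its count of 0, and without this mouse the value was 1.39 ± 0.38 with an adjusted p of 0.0247. In limma, where a count of 0 is taken to the log scale, the value with all mice was 0.12 (adjusted p = 0.966). Mir124a-1hg differed by -0.04 ± 0.32 (adjusted p = 0.967; -0.34 without mouse 22 and 0.087 without mouse 23), with a level of 84.5 ± 25.1 CPM in HA-negative nuclei and of 78.7 ± 46.5 in HA-positive ones. So 0 of 2 host transcripts were called, against 7.01% of the 5538 genes tested. The difference between the fraction effects of the 2 vectors, which is the same quantity as the difference between the vector effects in the 2 fractions, had a log2 value of 0.57 ± 0.61 in Mir124-2hg and 0.16 ± 0.38 in Mir124a-1hg. For Mir124-2hg it was 0.21 without mouse 22 and 1.42 in limma. For Mir124a-1hg it was -0.01 without the g4 HA-positive library of mouse 19 and 0.48 without mouse 22. It did not pass the test for either host (adjusted p = 0.996 and 0.998), and its background was 0% of 7197 genes called (359 at an unadjusted p under 0.05, and 0 by DESeq2 and by limma). The rise of Mir124-2hg in HA-positive nuclei was thus not shown to depend on the vector.

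The vector comparison asks how the g4 vector differed from the empty one within 1 sorted fraction. In HA-positive nuclei, Mir124-2hg stood at 132 ± 31.3 CPM with g4, and at 82.2 ± 54.2 CPM with the empty vector, a log2 fold change of 0.70 ± 0.48 (edgeR adjusted p = 0.833, 95% interval from -0.24 to 1.64). It was higher with g4 in 6 of 7 mice, and the groups overlapped. Mouse 22 weighed on this value too, which was 0.41 without it and 1.78 in limma (adjusted p = 0.871 and 0.625). Leaving out only the library of mouse 19 in g4 HA-positive nuclei gave 0.78. For Mir124a-1hg the change was 0.29 ± 0.33 (adjusted p = 0.926, 95% interval from -0.36 to 0.94). This value was 0.14 without the g4 HA-positive library of mouse 19, and with 1 mouse left out it ran from 0.052 (mouse 19) to 0.60 (mouse 22). In this comparison 0 of 2 host transcripts were called, and 0.0599% of 5011 tested genes. In HA-negative nuclei the changes were 0.15 ± 0.30 for Mir124-2hg and 0.14 ± 0.19 for Mir124a-1hg (edgeR adjusted p = 0.999 for both). Again 0 of 2 were called, against 0% of 6262 genes (236 at an unadjusted p under 0.05, 1 called by DESeq2 and 0 by limma).

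**Figure D4:**
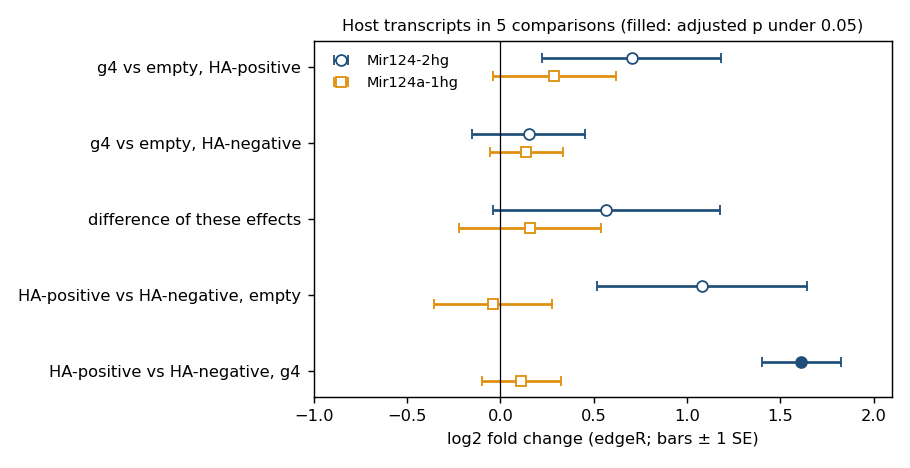
Log2 fold changes of the host transcripts from edgeR in the 5 comparisons (horizontal axis; circles Mir124-2hg, squares Mir124a-1hg; bars are ± 1 SE). Only Mir124-2hg between HA-positive and HA-negative nuclei of the g4 hemisphere, at 1.61, is filled, which marks an adjusted p under 0.05.

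The balance between the 2 host loci can be read within a library, without scaling to depth. Mir124-2hg made up 57.3 ± 13.1% of the summed host counts in g4 HA-positive libraries (37.3 to 73.8%) and 31.5 ± 7.65% in g4 HA-negative ones (22.2 to 40.5%). The difference of 25.7 percentage points passed an exact two-sided permutation test (p = 0.00233, adjusted p = 0.00932 over 4 tests). With sign flips within animals the adjusted p was 0.0625, and the smallest raw p that 128 sign flips can give is 0.0156. Only the library of mouse 19, at 37.3%, fell within the range of the HA-negative group, and without it the difference was 29.1 points. With the empty vector the shares were 50.1 ± 28.8% in HA-positive and 30.4 ± 16.2% in HA-negative nuclei (difference 19.7 points, exact permutation adjusted p = 0.283). Without mouse 22 this difference was 31 points (exact permutation adjusted p = 0.0303). Between vectors the share differed by 7.17 points in HA-positive nuclei and 1.13 points in HA-negative nuclei (exact permutation adjusted p = 0.768 and 0.866). Neither direction held with 1 mouse left out: the first was -3.94 points without mouse 22, and the second was -0.21, -0.18 and -2.09 points without mice 18, 19 and 20.

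The empty HA-positive group held the extremes of this share. The share was 93% in mouse 23 (40 of 43 host counts, 95% Wilson interval 81.4 to 97.6%) and 0% in mouse 22 (0 of 71, which allows up to 4.23% at 3 counts). In the g4 HA-positive libraries of the same mice it was 47.8% and 73.8%. The intervals cover counting error only, since the input was in the range of picograms of RNA and no source used here names molecular identifiers.

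**Figure D5:**
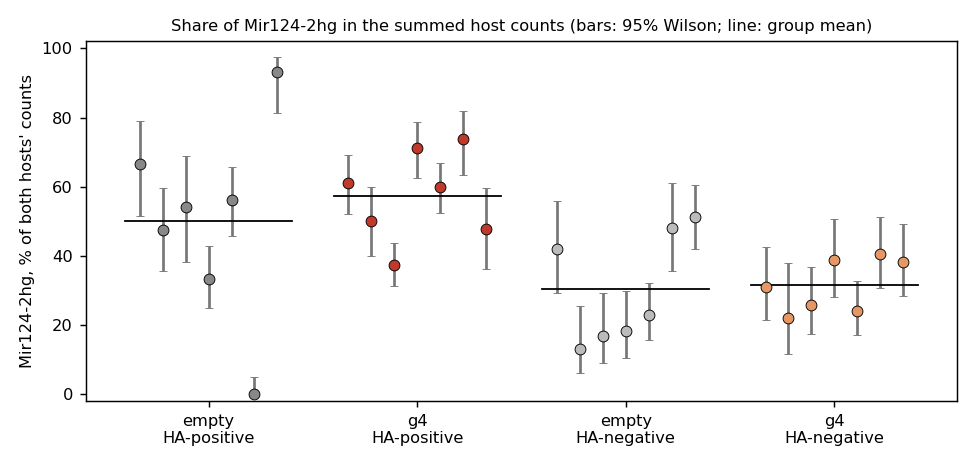
Share of Mir124-2hg in the summed counts of Mir124-2hg and Mir124a-1hg (vertical axis, percent) for each library, in the order of mice 17 to 23 within a group; bars are 95% Wilson intervals and the black line is the group mean. The means are 50.1 and 57.3% in HA-positive nuclei and 30.4 and 31.5% in HA-negative nuclei, and the empty HA-positive group spans 0 to 93%.

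Per kilobase of exon, the 2 host transcripts stood within each other's spread in g4 HA-positive nuclei, with 21.9 ± 5.2 CPM per kb for Mir124-2hg and 20.7 ± 7.58 for Mir124a-1hg (SD, n = 7). In the HA-negative groups Mir124-2hg was the lower of them, at 7.03 ± 1.54 CPM per kb with g4 and 6.3 ± 3.68 with the empty vector, against 19.3 ± 3.22 and 17.6 ± 5.23 for Mir124a-1hg. In empty HA-positive nuclei the levels were 13.7 ± 9.01 and 16.4 ± 9.67 CPM per kb. The spread between mice was wider with the empty vector than with g4 for both transcripts and in both fractions, with coefficients of variation in HA-positive nuclei of 65.9% and 23.7% for Mir124-2hg and 59.1% and 36.6% for Mir124a-1hg. The difference in spread was not tested.

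The sorted fractions also differed in their cell type markers, which is measured here beside the host transcripts. In HA-positive nuclei the summed level of 15 inhibitory neuron markers was 2217 to 4408 CPM with g4 and 3773 to 4924 with the empty vector, against 1152 to 1745 and 1280 to 1775 CPM in HA-negative nuclei. With g4, 10 of 14 tested inhibitory markers were called higher in HA-positive nuclei, and 4 of 15 excitatory, 7 of 10 oligodendrocyte and 4 of 6 microglia markers were called lower, where 6.4% of all tested genes were called in either direction. The sums for the 13 oligodendrocyte markers were 188 to 1877 CPM in g4 HA-positive and 1736 to 3223 CPM in g4 HA-negative libraries, and the top of the first range was the library of mouse 19. Those for the 13 microglia markers were 2.87 to 413 CPM and 454 to 743 CPM. The sums for the 11 astrocyte markers were 984 to 2812 CPM and 1246 to 1785 CPM with g4, with 0 of 7 tested called. With the empty vector they were 689 to 1529 CPM in HA-positive and 1289 to 1671 CPM in HA-negative nuclei, 6 of 7 tested were lower in HA-positive nuclei and 1 of 7 was called (7.01% of all genes). Between vectors in HA-positive nuclei, 6 of 6 tested astrocyte markers were above 0 with g4 (median log2 change 0.63, against -0.01 over all genes), and 0 were called. In the same comparison, 11 of 14 tested inhibitory markers were below 0 (median log2 change -0.34), with 0 called. Of 12 tested excitatory markers, 10 were above 0 (median 0.33), with 0 called. These differences go with the vector comparison of the host transcripts in HA-positive nuclei, and their part there was not tested. In such bulk samples, fewer cells of a type and less RNA per cell cannot be told apart, and the part of inhibitory neurons in the rise of Mir124-2hg was not tested.

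Pan-neuronal markers differed little between the fractions, at 7395 to 8670 CPM in g4 HA-positive and 6504 to 7680 CPM in g4 HA-negative libraries. The host transcripts were therefore also expressed per count of these 16 markers. On this scale Mir124-2hg was 2.76-fold higher in g4 HA-positive than in g4 HA-negative nuclei, a log2 difference of 1.47 (exact two-sided permutation p = 0.000583, the smallest that 3432 splits can give, adjusted p = 0.00466 over 8 tests). With sign flips within animals its adjusted p was 0.125, again with the smallest raw p that the flips can give. Without the g4 HA-positive library of mouse 19 the difference was 1.55. Mir124a-1hg differed by -0.10 on this scale (exact permutation adjusted p = 0.759). For Mir124-2hg the edgeR log2 fold change between these g4 fractions was 1.61. That value and the 1.47 are computed in different ways, and the part of the neuron share in the rise was not tested. With the empty vector Mir124-2hg differed by 0.38 on this scale (exact permutation adjusted p = 0.808). This is a mean of log2 ratios in which the count of 0 in mouse 22 stands at -13.04. It therefore cannot be set directly against the edgeR value of 1.08. Without mouse 22 the value per neuronal marker count was 1.43 (exact permutation adjusted p = 0.0693), and the edgeR value was 1.39. Without mouse 18 the value per neuronal marker count was 0.062. Between the vectors in HA-positive nuclei, the log2 difference per neuronal marker count was 1.45 for Mir124-2hg (exact permutation p = 0.0606, adjusted p = 0.242) and 0.55 for Mir124a-1hg (exact permutation adjusted p = 0.531), and without mouse 22 that of Mir124-2hg was 0.47.

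Across the 28 libraries, the genes whose log2 CPM followed Mir124-2hg most closely among 7196 genes were Atp6ap2, an accessory protein of the proton pump of vesicles, with r = 0.79, then Ddb1, a part of a ubiquitin ligase, with 0.78, Rfk, the riboflavin kinase, with 0.78, Mkx, a homeobox gene, with 0.78 and Slc24a2, a sodium, potassium and calcium exchanger of neurons, with 0.78. All 5 were higher on average in both HA-positive groups than in both HA-negative groups (Atp6ap2 at 135 and 175 CPM against 104 and 109 CPM). For Mir124a-1hg they were the receptor phosphatase Ptpra with r = 0.74, Casd1 with 0.73, Cpd with 0.72, Mycbp2 with 0.69 and Fads1 with 0.67. No gene was in both lists. The hosts had r = -0.34 with each other, where the median over all genes was -0.01 for both. These correlations pool 4 groups and libraries of the same mice, and low counts widen them, so they are given as a description.

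Of the machinery that makes and uses microRNAs, 20 of 22 listed genes were in the table and 16 or 17 were tested in a comparison. None was called in any of the 5 comparisons, where 0.0599, 0, 0, 7.01 and 6.4% of all tested genes were called. In the g4 hemisphere, their median log2 change between fractions was -0.04, against 0.01 over all tested genes. The closest to the threshold there was the RNA helicase Ddx5, a partner of Drosha, with 739 ± 75.7 CPM in HA-negative and 604 ± 69.1 in HA-positive nuclei (-0.29 ± 0.10, edgeR adjusted p = 0.0913). In the empty hemisphere its difference was -0.34 ± 0.12 (edgeR adjusted p = 0.0778). Drosha itself, which cuts the hairpin from the host transcript, differed by 0.49 ± 0.22 between fractions with the empty vector (edgeR adjusted p = 0.217). Between vectors in HA-positive nuclei the smallest p-values belonged to the silencing factor Tnrc6a (0.44 ± 0.28, edgeR adjusted p = 0.799) and the helicase Ddx17 (0.30 ± 0.21, edgeR adjusted p = 0.833), and 11 of 16 tested members were above 0, as were 49.2% of all tested genes, with a median of 0.10 against -0.01 over all genes.

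Noncoding RNAs that host or bind other microRNAs gave a comparison for the miR-124 hosts. Of 24 listed names 22 were in the table, and 8 to 10 were tested. Oip5os1, which is no microRNA host but binds miR-7, was the only one called. In HA-positive nuclei it fell from 782 ± 217 CPM with the empty vector to 425 ± 60.7 with g4 (-0.89 ± 0.15, edgeR adjusted p = 0.00387; 0.0599% of all genes called). Without the libraries under 10000 genes, 0 genes were called between vectors there, so this call ended. Oip5os1 was 0.63 ± 0.15 higher in HA-positive than in HA-negative nuclei with the empty vector (edgeR adjusted p = 0.00614; 7.01% of all genes called). These comparisons share the empty HA-positive libraries. The imprinted transcript Rian, a host of many microRNAs and small nucleolar RNAs, stood in HA-positive nuclei at 630 ± 159 CPM with the empty vector, and at 827 ± 78.4 CPM with g4 (0.38 ± 0.14, edgeR adjusted p = 0.696). Mir99ahg was low in empty HA-positive nuclei, at 3.42 ± 4.63 CPM, and at 21 to 30.3 CPM on average in the other groups. Its vector effect differed between the fractions by 2.94 ± 0.76 (edgeR adjusted p = 0.693).

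The 26 listed genes of the circuit around miR-124 hold its textbook targets, such as the splicing repressor Ptbp1 and the phosphatase Ctdsp1, and the repressor Rest that keeps miR-124 off outside neurons. All were in the table, but only 7 to 13 had enough counts to be tested, and 0 were called in any of the 5 comparisons, against the shares of all genes given above. Between vectors in HA-positive nuclei, 5 of 7 were above 0, as were 49.2% of all tested genes, with a median of 0.21 against -0.01 over all genes. The integrin Itgb1 was at 21.7 ± 13.9 CPM for the empty vector and 59.2 ± 15.4 CPM for g4 (1.44 ± 0.44, edgeR adjusted p = 0.457), and the transcription factor Creb1 had 35.4 ± 8.99 and 67.2 ± 27.3 CPM (0.87 ± 0.32, edgeR adjusted p = 0.676). In the difference of vector effects between fractions, Itgb1 was at 1.49 ± 0.55 and Ptbp3, a relative of Ptbp1, at 1.66 ± 0.64 (edgeR adjusted p = 0.924 for both).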

How the data were processed

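The authors deposited raw counts per gene, 1 column per library, with blank entries read here as 0, and named GRCm38 as the build, per the submitters' processing notes. The aligner, counting program, strand setting and molecular identifiers, if any, are not named in any source used here, so reads shared by a hairpin and its host cannot be assigned. Of 41550 entries, 1 named no gene and held 0% of counts. Columns were tied to samples by the sample descriptions, since for 3 mice the number in the title differs from that in the column name; mice are numbered here as in the titles.

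Counts were tested in edgeR 4.0.16 (R 4.3.3; filterByExpr, TMM factors, robust quasi-likelihood fit, two-sided) on the whole table, with Benjamini-Hochberg adjustment over all genes tested and a threshold of 0.05. Only the groups compared entered a fit, except for the difference of effects, which used all 4. Levels are CPM with TMM factors over all 28 libraries. Hairpin levels, host shares and host counts per pan-neuronal marker count (log2, 0.5 added to the host count) were tested by exact permutation of libraries in SciPy 1.17.1, adjusted within families of 2, 4 and 8 tests. Alternatives were DESeq2 1.42.0, limma voom 3.58.1, other scalings and filters, the animal as a block, and libraries left out. The code was tested on simulated data.

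The number in the titles names the mouse, so it pairs libraries. Deviations from the group means correlated with a median of 0.024 within mice and -0.004 between mice, and 5 of 28 pairs were over 0.1. The labels do not describe pooling, so each library was taken as 1 mouse.

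The text names all 5 genes. From each pathway list it takes called genes or the 2 with the smallest p, and for each host the 5 most correlated genes. It also takes the genes within 100 kb of a hairpin, the 5 microRNA genes with the most counts, and the 5 with the most counts among those detected in g4 HA-positive nuclei alone. Gm47277 and the Mir181b-1 library were singled out after their values were seen. The members and lists were chosen with earlier results of these data known.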

Additional observations from a re-analysis of the deposited data

Results flagged for a closer look

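Of 21 sets of 7 libraries checked for a value far from the rest, 2 held one. How often chance alone gives such a value at these low counts was not tested. Both were host transcripts per pan-neuronal marker count in empty HA-positive nuclei. Mir124-2hg in mouse 22 was the lowest at -13.04 on the log2 scale, set by a count of 0, where the nearest library was at -7.19. Mir124a-1hg in mouse 23 was the lowest at -9.34, from 3 counts, where the nearest was at -7.18. In each of these libraries the other host transcript had its highest level of the group in CPM, which is another scale than the flagged one. The library of mouse 23 had the lowest total count of the series (248612), and that of mouse 22 had 9553 genes detected.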

How the results depend on the processing

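Of 287 alternative values for the miR-124 genes, 272 kept their direction and their side of the threshold; for Mir124a-2 this follows from groups at 0 and says nothing about stability. The 4 that changed sides concern Mir124-2hg. Without mouse 22, its log2 change and its share between fractions with the empty vector passed (1.39 and 31 points). With the replicate block, as sign flips within animals, its share and its level per neuronal marker count between fractions with g4 stayed at 25.7 points and 1.47 but no longer passed. The smallest p the flips can give, 0.0156, came to 0.0625 and 0.125 after adjustment, so this says nothing about their stability. The block changed no other call of a host transcript.

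The 11 changes of sign concern values that passed the test under none of the alternatives run. Without the g4 HA-positive library of mouse 19, Mir124a-1hg was at -0.01 for the difference of vector effects and -0.050 between fractions with g4. Its level per neuronal marker count between those fractions was -0.216 without this library, which kept the sign of the main value of -0.10. With 1 animal left out at a time, Mir124a-1hg ranged from -0.10 to 0.48, from -0.34 to 0.087 and from -0.03 to 0.19 for the difference of effects and the fractions with the empty and the g4 vector, changing sign without mouse 19, or 23 for the empty vector. Its level per neuronal marker count between fractions with g4 ranged from -0.21 to 0.0019 (positive without mouse 22). The share of Mir124-2hg ranged from -3.94 to 15.9 points between vectors in HA-positive nuclei (negative without mouse 22), from -2.09 to 3.5 points in HA-negative nuclei (negative without mouse 18, 19 or 20), and from 16 to 31 points between fractions with the empty vector. The log2 change of Mir124-2hg between those fractions ranged from 0.79 to 1.39 and was 0.12 in limma.

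Counts of called genes moved more. Between vectors in HA-positive nuclei, 3 genes were called, against 1 with the replicate block, 11 in DESeq2, 28 with no filter, 5 without the g4 HA-positive library of mouse 19, 0 without libraries under 10000 genes, and 1 to 4 with 1 animal left out (1 without mouse 18). In HA-negative nuclei DESeq2 called 1, and for the difference of effects 3 were called with no filter, where edgeR with its filter called 0. Between fractions, 661 genes were called with the empty vector with no filter (388 with it) and 251 to 371 with 1 animal left out (fewest without mouse 19). With g4, 259 were called on total counts alone (401 with TMM factors) and 218 to 422 with 1 animal left out (218, 224 and 241 without mice 20, 21 and 22), and 507 with the library of mouse 19 left out of the g4 HA-positive group. The causes were not tested. Low depth limits what can be said of the hairpin genes: 3 counts correspond to 3.32 to 8.95 CPM in a single g4 HA-positive library.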

Other observations

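Other genes within 100 kb of the hairpins gave few counts. Near Mir124a-2 no gene but its host had any. Near Mir124a-1, Kif13b, a kinesin motor whose annotated start lies 56.5 kb from the hairpin, had 133 and 120 counts in empty and g4 HA-negative nuclei and 48 and 49 in the HA-positive ones. It was lower in HA-positive than in HA-negative nuclei with g4 (log2 change -1.44 ± 0.44, edgeR adjusted p = 0.0426), where 6.4% of all tested genes were called. The host at the same locus, Mir124a-1hg, differed there by 0.11 ± 0.21 (edgeR adjusted p = 0.857). With the empty vector Kif13b changed by -0.92 ± 0.43 (edgeR adjusted p = 0.237). Near Mir124a-3, the RNA-binding protein Ythdf1 and the GTPase activator Arfgap1 were tested, with 0 calls in any comparison. Birc7, 34.9 kb from Mir124a-3, had 7 counts in g4 HA-positive nuclei and 0 elsewhere, all in mouse 21.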
